A study of Homo sapiens with 8 samples.

Results

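This account covers genes that mark the primitive streak, mesoderm, endoderm, trophoblast and amnion, the lineages that pluripotent cells enter when they leave the undifferentiated state by routes other than ectoderm. The 57 genes, markers of these lineages chosen with earlier results of these libraries known, were matched to the Ensembl identifiers of the expression table through their official symbols, and followed in every library; 25 of them were among the table's 17546 genes and 32 were not. RNA was measured in H1 cells, an established human embryonic stem cell line grown without feeder cells, in 2 groups of 4 poly(A)-selected libraries. The control group carried lentivirus with a negative control shRNA and the knockdown group carried lentivirus with shRNA against NAT10, the enzyme that acetylates cytidine in RNA. Both lentiviruses expressed GFP, and in both groups GFP-positive cells were enriched and then expanded in TeSR-E8 medium under puromycin, so every library came from transduced, selected cells. The labels do not say how many shRNA sequences the knockdown libraries represent, nor whether the replicates of a group were cultured separately; if they were not, the p-values below reflect technical spread. An effect of the shRNA other than on NAT10 cannot be told apart from an effect of NAT10, since the samples held no rescue.

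In the embryo, NODAL, BMP and WNT signals act on the epiblast to induce the primitive streak, where cells switch on T-box and homeobox factors such as TBXT, EOMES and MIXL1 and then become mesoderm or definitive endoderm. NODAL signals reach their targets through SMAD2 and SMAD3 together with FOXH1, a forkhead factor already present in pluripotent cells. BMP signals given to human pluripotent cells instead favour trophoblast-like and amnion-like fates, in which GATA2, GATA3 and TFAP2C act early.

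NAT10 itself ran from 2048 to 2285 normalized counts in control libraries and from 1592 to 1647 in knockdown libraries, which lay below all controls (-25.3%). Recovered totals ran from 15574631 to 16305014 reads per library. An approximate upper limit of 3 reads behind a count of 0 corresponds to at most 0.193 CPM. The limit for genes not in the table is a different one, 10 reads in at least 4 libraries. All 12 embryonic stem cell markers looked for were in the table. Of these, 8 rose, each by less than 2-fold, and 4 did not pass, against 32.3% up and 32.4% down over all genes. With library totals 7 rose and 3 fell, against 23.2% and 41.9% of all genes. The summed signal of the 12 was 121808 to 125985 in controls and 150707 to 155459 in knockdown. POU5F1, a defining member, was listed at only 24.0 ± 5.63 normalized counts in controls and 17.2 ± 7.11 in knockdown (SD, n = 4 each). Scaled by exon length and library total, its control level was 0.536, against 161 for SOX2 and 6.53 for NANOG. The reason for the low POU5F1 count was not tested. Fibroblast markers, with 4 of 8 measured, summed to 22037 to 22760 in controls and 20700 to 22360 in knockdown, while single genes moved in opposite directions: COL1A1 (log2 fold change 0.68, adjusted p = 3.31e-22) and COL1A2 (0.21) rose, THY1 (-0.71, adjusted p = 1.81e-26) fell and PDGFRB did not pass. With library totals 2 rose and 2 fell, and COL3A1, DCN, LUM and FAP were not in the table. THY1 alone averaged 12941 normalized counts in controls, of a mean sum of 22309. Whether this signal came from fibroblasts was not tested. Neuroectoderm markers, with 4 of 9 measured, all rose, where 32.3% of all genes rose. Their summed counts were 5343 to 5674 in controls and 12234 to 12579 in knockdown, most of it NES. SOX1, ZIC1, LHX2, SIX3 and NEUROG2 were not in the table. PAX6 went from 2.42 ± 0.964 to 25.1 ± 2.05. It had 10 reads in no control library, so the filter described below let it into the table only through knockdown. The part that the neuroectoderm and fibroblast marker changes have in the results below was not tested.

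Most genes that define a committed lineage were not in the table, which holds only genes with at least 10 reads in at least 4 libraries. For the primitive streak and early mesoderm, 9 of 12 were not there: TBXT, EOMES, GSC, MESP1, MSGN1, EVX1, LHX1, CDX1 and CDX2. Among lateral, cardiovascular and blood mesoderm genes, 6 of 12 were not there, namely HAND1, HAND2, TBX5, FOXF1, FOXC1 and TAL1. The endoderm factors SOX17, FOXA1, FOXA2, GATA4, GATA6 and HNF4A, 6 of 14 endoderm regulators and surface markers, were not there either, nor were APOA1, APOA2 and TTR, 3 of 5 secreted products. Of 14 trophoblast and amnion genes, 8 were not there: CGA, GCM1, XAGE2, ISL1, TP63, VTCN1, HSD3B1 and CYP19A1. A gene that rose or fell below that limit could not be seen here.

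Of the 25 genes measured, 10 rose and 9 fell in knockdown at a limma adjusted p under 0.05, and 6 did not pass. Across the whole table, 32.3% of genes rose and 32.4% fell by the same rule, so the list's shares, 10 and 9 of 25, stood near the background. Scaled by library totals instead of the authors' size factors, 8 of the 25 rose and 11 fell, against 23.2% and 41.9% of all genes, whose median log2 fold change moved to -0.11. The median log2 fold change was -0.05 in the list and 0.0013 over all genes. Groups of libraries did not overlap for 20 of the 25, against 56.7% of all genes. Changes of at least 2-fold were called for 5 genes that rose (GATA3, AFP, PDGFRA, GATA2 and MIXL1) and 4 that fell (MESP2, APLNR, APLN and LMO2), and over all genes 3.36% rose and 6.23% fell by that much. These counts describe the genes that reached the table and carry no weight as a test of the list. MESP2, APLNR and LMO2 had 10 reads in no knockdown library, and GATA2 had 10 reads in no control library, so they could enter the table only through the group in which they were high. GATA3, with 1 such control library, and HHEX, with 1 such knockdown library, were close to that position.

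**Figure D1:**
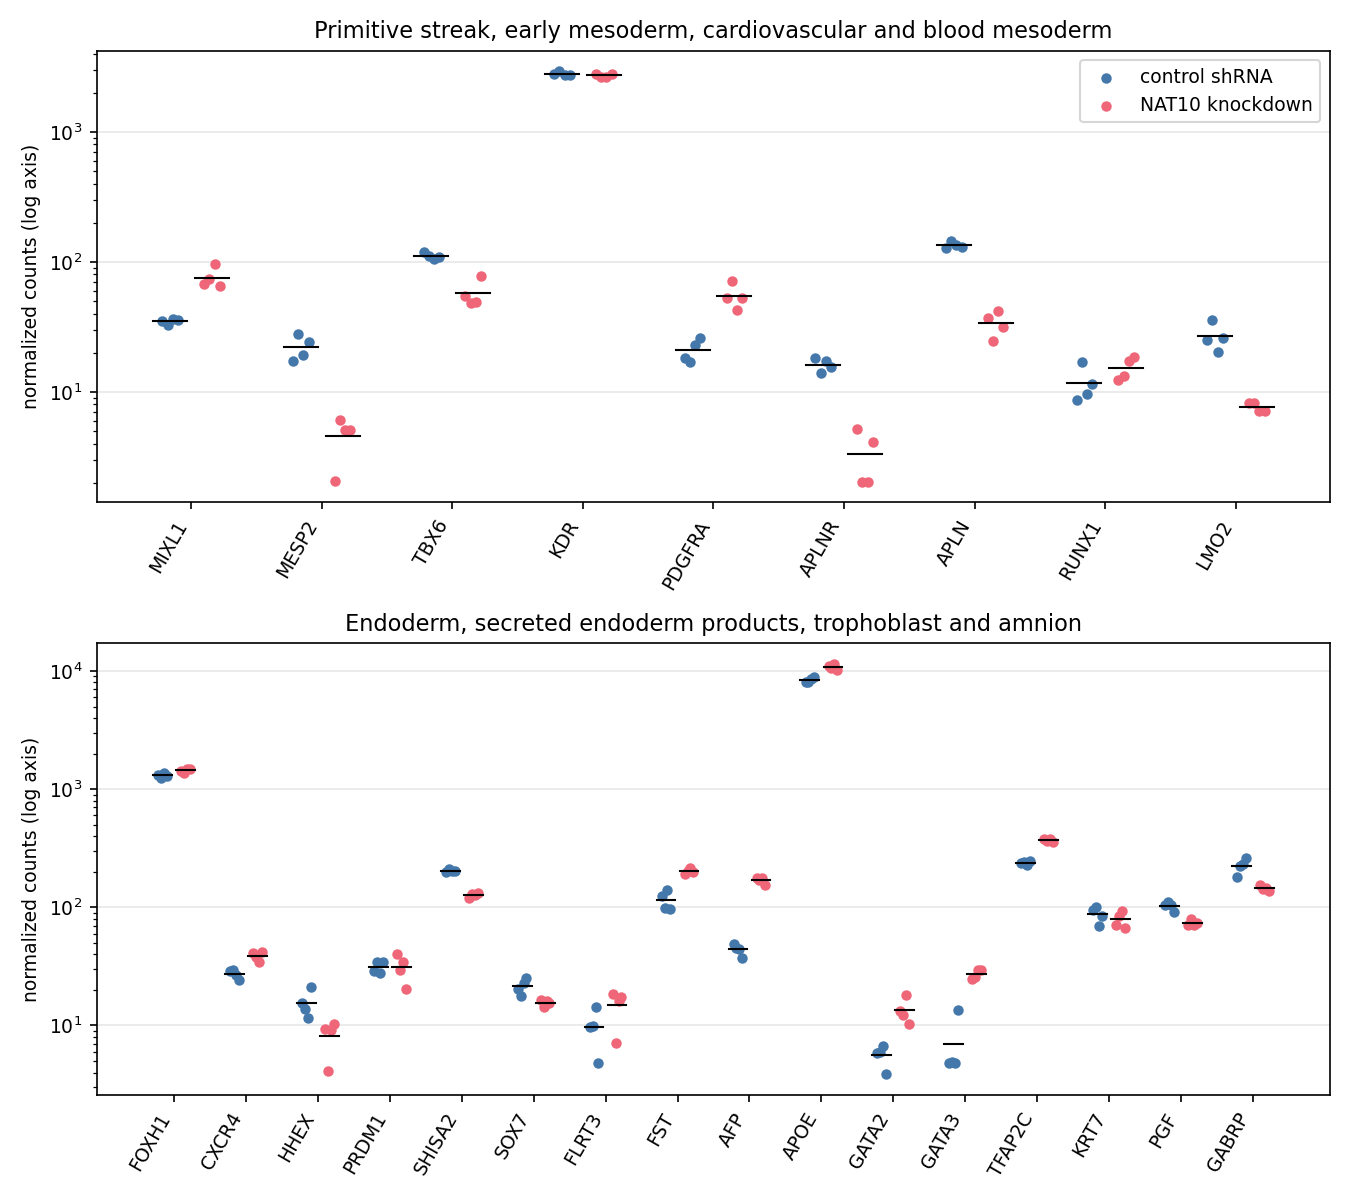
Normalized counts (log axis) of the 25 measured genes in each of 8 libraries, with control shRNA in blue, NAT10 knockdown in red and a black line at each group mean (n = 4). MESP2, APLNR, APLN and LMO2 lie lower in every knockdown library and AFP, GATA3, PDGFRA and MIXL1 higher, while KDR and PRDM1 overlap between the groups.

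The measured genes spanned a wide range of levels. Scaled by exon length and library total (RPKM), APOE stood at 249 in controls, FOXH1 at 33.8 ± 1.32 and KDR at 27.7 ± 0.769. TFAP2C followed at 5.12 ± 0.190, SHISA2 at 4.63 ± 0.104 and GABRP at 3.14 ± 0.465. Below them, GABRP, APLN (2.71 ± 0.142), FST (2.51 ± 0.455) and TBX6 (2.30 ± 0.118) stood within about 1 SD of a neighbour in that order. At the low end were PDGFRA (0.140), GATA3 (0.132), FLRT3 (0.121), GATA2 (0.0811) and RUNX1 (0.0486), where neighbours in the order differed by less than the sum of their SDs. By mean level over all 8 libraries, 5 of the 25 genes were above the median gene of the table, and 11 averaged under 50 normalized counts in both groups. Of the 9 genes with a called change of at least 2-fold, 5 were among these 11.

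**Figure D2:**
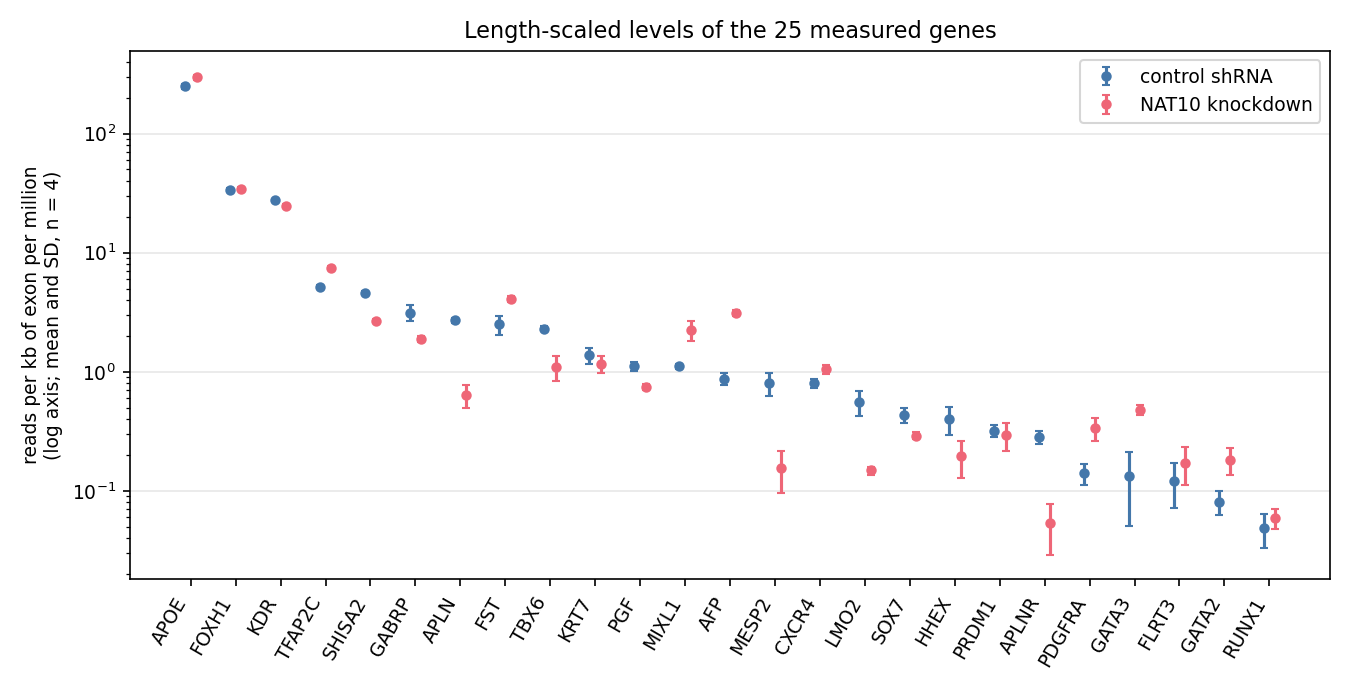
Length-scaled level (RPKM, log axis; mean and SD, n = 4 libraries per group) of the 25 measured genes, ordered by the control mean, with control shRNA in blue and NAT10 knockdown in red. APOE, FOXH1 and KDR stand far above the rest in both groups, and most of the others lie under 5 in controls.

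Promoter sequence is shown for 3 genes described below: MIXL1 and MESP2, because they alone among the genes with a promoter window held the FOXH1 binding motif and they moved in opposite directions, and AFP, because it had the smallest adjusted p. RefSeq windows of 250 bases before to 50 after the transcription start (GRCh38.p14) were found for 19 of the 25 genes, 32 windows in all. APLNR, FOXH1, KRT7, LMO2, SOX7 and TFAP2C had none. The stretches are those upstream parts that overlap no exon of GENCODE release 29, printed 5′ to 3′ on the gene's strand. They are MIXL1 at chr1:226223414-226223617, plus strand, MESP2 at chr15:89776082-89776331, plus strand, and AFP at chr4:73435971-73436162, plus strand. Capitals mark the FOXH1 motif AATCCACA, read on either strand, in MIXL1 and MESP2, and the CCAAT motif, also on either strand, in AFP.
MIXL1: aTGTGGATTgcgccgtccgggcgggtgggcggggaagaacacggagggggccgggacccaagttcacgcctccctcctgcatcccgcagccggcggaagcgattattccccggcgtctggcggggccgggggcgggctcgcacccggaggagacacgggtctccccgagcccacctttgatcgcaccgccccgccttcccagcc
MESP2: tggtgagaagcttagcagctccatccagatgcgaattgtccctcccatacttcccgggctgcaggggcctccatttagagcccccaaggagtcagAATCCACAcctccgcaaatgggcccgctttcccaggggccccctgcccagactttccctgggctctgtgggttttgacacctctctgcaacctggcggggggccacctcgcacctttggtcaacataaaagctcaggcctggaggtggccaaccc
AFP: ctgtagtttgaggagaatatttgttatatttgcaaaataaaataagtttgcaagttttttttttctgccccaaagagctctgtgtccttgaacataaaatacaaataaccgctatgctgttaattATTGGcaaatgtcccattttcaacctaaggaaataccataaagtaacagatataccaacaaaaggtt
The FOXH1 motif was in 2 of the 32 windows and in 0.817% of all 35116 windows of that length. It began 249 bases before the start of MIXL1, on the opposite strand, and 155 bases before that of MESP2, and overlapped no match to the other motifs searched. TATAAA was found in windows of AFP, CXCR4 and GATA3, against 11.5% of all windows, and CCAAT in 11 of the 32 windows, against 34.6%. GGGCGG was found in 20 of the 32 windows and in 15786 of all 35116. Each motif was searched on both strands, and a match describes letters only.

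Among primitive streak and early mesoderm genes, 1 of 3 measured rose and 2 fell, all of them low in these cells. Over all genes 32.3% rose and 32.4% fell, and with 3 genes nothing about the group is read from that count. MIXL1, a homeobox factor of the streak that acts in mesendoderm formation (chromosome 1, 226223618 to 226227054), had 34.8, 32.7, 36.4 and 35.6 normalized counts in control libraries 1 to 4 and 67.9, 73.5, 96.5 and 64.6 in knockdown libraries 1 to 4. All knockdown libraries were above all controls, and library 3 was the highest. On the log2(value + 1) scale, used for every fold change here, MIXL1 rose by 1.08 ± 0.149 (SE, adjusted p = 1.31e-08). With library totals as scaling the MIXL1 change was 0.97, just under 2-fold. TBX6, a T-box factor of paraxial mesoderm (chromosome 16, 30085793 to 30091887), moved the other way, with 119.9, 111, 105 and 109 counts in controls and 54.6, 48.0, 48.8 and 78.0 in knockdown. The groups did not overlap, although knockdown library 4 lay well above the other 3, and the log2 fold change was -0.97 ± 0.130 (SE, adjusted p = 6.00e-09). MESP2, a helix-loop-helix factor that patterns somites (chromosome 15, 89760591 to 89778754), had 17.4, 27.7, 19.2 and 24.1 counts in controls and 2.06, 6.13, 5.08 and 5.13 in knockdown. Every knockdown library was under the lowest control, a log2 fold change of -2.09 ± 0.316 (SE, adjusted p = 1.07e-07) on a handful of reads. With a pseudocount of 5 in place of 1 it was -1.50, and MESP2 had 10 reads in no knockdown library. The FOXH1 motif was shared by a gene that rose, MIXL1, and a gene that fell, MESP2. MESP2 could enter the table only through its control reads, so nothing about the motif is read from these directions.

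The apelin ligand gene APLN fell 3.97-fold in mean, and its receptor gene APLNR was near the detection limit of the table. APLN, which encodes the secreted peptide apelin, a signal in cardiovascular development (chromosome X, 129645259 to 129654937), had 129, 144, 134 and 130.0 normalized counts in controls and 37.1, 24.5, 41.7 and 31.8 in knockdown. Knockdown libraries lay far below every control, with a log2 fold change of -1.98 ± 0.138 (SE, adjusted p = 6.58e-18). APLNR, the G protein-coupled receptor for apelin and ELABELA (chromosome 11, 57233577 to 57237314), had 18.4, 13.9, 17.2 and 15.4 counts in controls and 5.15, 2.04, 2.03 and 4.10 in knockdown. Its groups did not overlap either and the log2 fold change was -2.05 ± 0.352 (SE, adjusted p = 1.42e-06), or -1.36 with a pseudocount of 5. APLNR had 10 reads in no knockdown library, so the table could hold it only as a gene that was higher in controls. In bulk RNA, fewer cells carrying a transcript and less of it per cell cannot be told apart, here or for the other low genes.

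Of 6 lateral, cardiovascular and blood mesoderm genes measured, APLN and APLNR included, 1 rose, 3 fell and 2 did not pass, against 32.3% up and 32.4% down over all genes (1 up and 4 down with library totals). Of the 3 that fell, APLNR and LMO2 were in the table only through their control reads, so nothing about the group is read from that count. LMO2, a LIM-only adaptor of blood and endothelial transcription complexes (chromosome 11, 33858576 to 33892289), had 25.1, 35.7, 20.1 and 26.0 counts in controls and 8.24, 8.17, 7.11 and 7.18 in knockdown. The knockdown libraries were tightly grouped under all controls, and the log2 fold change was -1.65 ± 0.260 (SE, adjusted p = 2.61e-07). PDGFRA, a receptor tyrosine kinase of mesoderm and primitive endoderm (chromosome 4, 54229097 to 54298247), had 18.4, 16.8, 23.0 and 26.0 counts in controls and 52.5, 71.5, 42.7 and 52.3 in knockdown. It rose without overlap by 1.33 ± 0.186 (SE, adjusted p = 1.62e-08) on the log2 scale. GENCODE places 15.8% of PDGFRA exon bases inside another annotated gene on the same strand, AC058822.1, which is not in the table. KDR, the VEGF receptor that marks early mesoderm and endothelium and is also made by undifferentiated human stem cells, was the most abundant of these genes, with 2807, 2921, 2742 and 2751 counts in controls and 2788, 2636, 2648 and 2789 in knockdown. Its groups overlapped (log2 fold change -0.05, SE 0.0352, adjusted p = 0.240). With library totals in place of the authors' scaling, KDR changed by -0.16 (adjusted p = 0.000106). RUNX1, a regulator of blood formation, lay between 8.70 and 18.5 counts over all libraries, with a log2 fold change of 0.39 that missed the threshold (adjusted p = 0.215).

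Of the 8 endoderm regulators and surface markers measured, 3 rose and 2 fell, each by less than 2-fold, and 3 did not pass. The shares over all genes were 32.3% up and 32.4% down. Scaling by library totals left 1 gene called higher and 3 called lower, where all genes stood at 23.2% and 41.9%. Nothing about the group is read from these counts. FST, which encodes the activin antagonist follistatin (chromosome 5, 53480409 to 53487134), had 125, 99.1, 139 and 96.3 normalized counts in controls and 191, 204, 216 and 198 in knockdown. Controls varied more than knockdown libraries but none reached them, and FST rose by 0.83 ± 0.0979 (SE, adjusted p = 2.38e-10) on the log2 scale. SHISA2, an endoplasmic reticulum protein that belongs to a family known from frog embryos to hold back FGF and WNT receptors (chromosome 13, 26044597 to 26051031), had 200.1, 210.1, 204 and 203 counts in controls and 119, 129, 127 and 133 in knockdown. Both groups were tight and well apart, with a log2 fold change of -0.68 ± 0.0848 (SE, adjusted p = 9.31e-10). HHEX, a homeobox factor of anterior endoderm and liver (chromosome 10, 92689951 to 92695646), had 15.5, 13.9, 11.5 and 21.2 counts in controls and 9.27, 4.08, 9.14 and 10.3 in knockdown. The highest knockdown library came close to the lowest control, and the fall (log2 fold change -0.88 ± 0.307 SE, adjusted p = 0.0110) rested on single libraries. Without control library 4 it was -0.72 (adjusted p = 0.0624) and without knockdown library 2 it was -0.61 (adjusted p = 0.0719).

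FOXH1, the NODAL effector (chromosome 8, 144473412 to 144476335), was the most abundant gene of this group, with 1319.7, 1246, 1359 and 1295 counts in controls and 1432, 1369, 1466 and 1487 in knockdown. The groups came close without overlap, a log2 fold change of 0.14 ± 0.0404 (SE, adjusted p = 0.00209). With library totals as scaling the change was 0.03 (adjusted p = 0.498), and 31.6% of FOXH1 exon bases overlap KIFC2 on the opposite strand, where reads cannot be assigned unless strand was used in counting. CXCR4, the chemokine receptor used to sort definitive endoderm, lay at 24.1 to 29.7 counts in controls and 34.5 to 42.1 in knockdown. It rose by 0.49 ± 0.177 (SE, adjusted p = 0.0137), but missed the threshold with library totals (0.38, adjusted p = 0.0526) and with DESeq2 on the recovered reads (0.51, adjusted p = 0.0520). SOX7, a factor of primitive endoderm and endothelium, had 21.5 ± 3.13 counts in controls and 15.6 ± 0.990 in knockdown (SD, n = 4 each). The libraries did not overlap, yet a log2 fold change of -0.43 missed the threshold (adjusted p = 0.0959). With library totals SOX7 passed (-0.54, adjusted p = 0.0383). GENCODE places 39.4% of SOX7 exon bases inside the annotated gene PINX1 on the same strand, which is not in the table. PRDM1, a repressor used in endoderm and germ cell fates, had 27.8 to 34.7 counts in controls and 20.5 to 40.2 in knockdown (log2 fold change -0.05, adjusted p = 0.844). FLRT3, a membrane protein of the anterior visceral endoderm in mouse, had 4.81 to 14.4 and 7.15 to 18.5 counts (log2 fold change 0.57, adjusted p = 0.111). FLRT3 passed without control library 3 (0.77, adjusted p = 0.0474) or without knockdown library 2 (0.86, adjusted p = 0.0161).

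Both measured secreted endoderm products rose, where 32.3% of all genes rose. AFP, the fetal serum protein alpha-fetoprotein of yolk sac and liver (chromosome 4, 73431138 to 73456174), had 49.3, 45.6, 44.0 and 37.5 normalized counts in controls and 177, 171, 177 and 155 in knockdown. Every knockdown library lay far above the highest control, and AFP rose by 1.93 ± 0.116 (SE, adjusted p = 2.87e-20) on the log2 scale, to 3.85 times the control mean. APOE, the lipid carrier apolipoprotein E (chromosome 19, 44905754 to 44909393), had 8141, 8047, 8514 and 8950.4 counts in controls and 10908, 10619, 11469 and 10178 in knockdown. No library overlapped the other group and APOE rose by 0.36 ± 0.0338 (SE, adjusted p = 1.44e-12). Their partners in liver and yolk sac endoderm, APOA1, APOA2 and TTR, were not in the table.

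**Figure D3:**
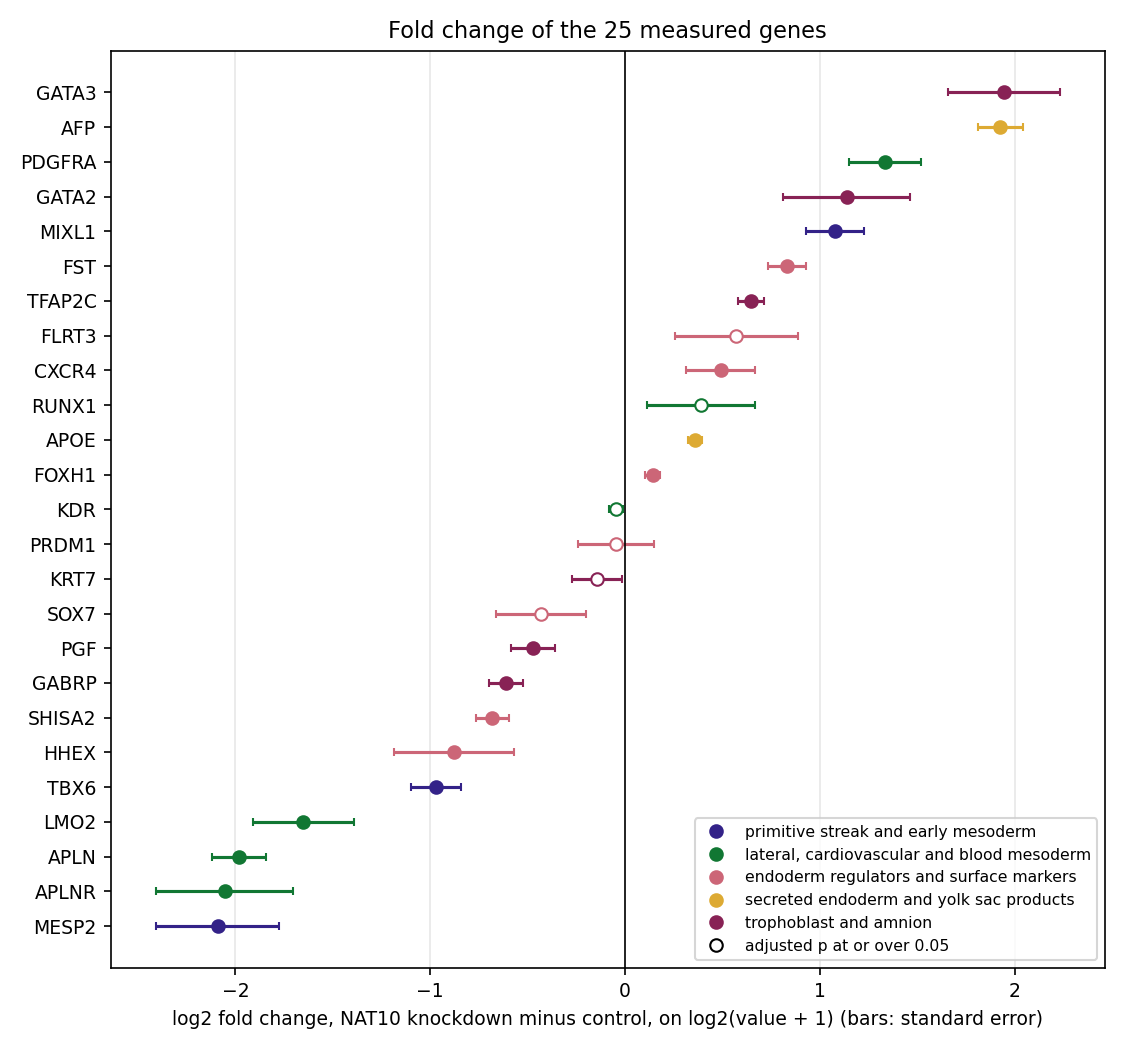
Log2 fold change (NAT10 knockdown minus control, log2(value + 1) scale) of the 25 measured genes in order of size, with bars of 1 standard error, colours for the 5 role groups and open symbols for genes with an adjusted p of 0.05 or more. GATA3 (1.94) and AFP (1.93) stand at the top, MESP2 (-2.09) at the bottom, and every role group with more than 2 measured genes has members on both sides of 0.

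Of 6 trophoblast and amnion genes measured, the transcription factor genes TFAP2C, GATA3 and GATA2 rose, GABRP and PGF fell and KRT7 did not pass. Over all genes 32.3% rose and 32.4% fell. With 10 reads in no control library for GATA2 and in 1 for GATA3, the table could hold GATA2 only as a gene that was higher in knockdown, and GATA3 was close to that. TFAP2C, an AP-2 factor of trophoblast, germ cells and naive pluripotency (chromosome 20, 56629302 to 56639283), had 235, 239.8, 226 and 248 normalized counts in controls and 382, 366, 381 and 359 in knockdown. The groups were tight and separate, and TFAP2C rose by 0.65 ± 0.0655 (SE, adjusted p = 2.50e-12). GATA3, a zinc finger factor of trophoblast (chromosome 10, 8045378 to 8075203), had 4.83, 4.96, 4.79 and 13.5 counts in controls and 24.7, 25.5, 29.5 and 29.7 in knockdown. Control library 4 stood apart from the other 3 controls but below every knockdown library, and GATA3 rose by 1.94 ± 0.286 (SE, adjusted p = 5.56e-08). GATA2, a related factor of trophoblast and blood (chromosome 3, 128479427 to 128493185), had 5.80, 5.95, 6.70 and 3.85 counts in controls and 13.4, 12.3, 18.3 and 10.3 in knockdown. It rose without overlap by 1.14 ± 0.327 (SE, adjusted p = 0.00212). With a pseudocount of 5 in place of 1 the GATA2 change was 0.80, under 2-fold.

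GABRP, a GABA-A receptor subunit found in amnion (chromosome 5, 170763350 to 170814047), had 182, 223, 231 and 261 counts in controls and 154, 144, 146 and 136 in knockdown. Controls were spread and all above knockdown, with a log2 fold change of -0.61 ± 0.0892 (SE, adjusted p = 4.88e-08). PGF, the placental growth factor of the VEGF family, fell from a range of 90.5 to 112 counts to 71.0 to 79.6 (log2 fold change -0.47, adjusted p = 0.000332). KRT7, a keratin of trophoblast and other simple epithelia, lay at 69.9 to 100.1 counts in controls and 66.7 to 93.5 in knockdown, with a log2 fold change of -0.14 that missed the threshold (adjusted p = 0.327). Hormone and steroid genes of mature trophoblast, CGA, HSD3B1 and CYP19A1, were not in the table.

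The signals that act on these lineages were listed when several of them were known to change in these libraries, so their count is a description. Of 23 inducing signals and antagonists listed, 16 were measured, 12 rose, 1 fell and 3 did not pass, against 32.3% up and 32.4% down over all genes, with a median log2 fold change of 0.63. With library totals 9 rose and 1 fell, against 23.2% and 41.9% of all genes, with a median of 0.52. The secreted NODAL and BMP antagonist CER1 rose by 2.92 (adjusted p = 1.61e-38), the NODAL antagonists LEFTY2 by 2.39 (adjusted p = 2.42e-44) and LEFTY1 by 1.33, and FGF8, a streak and patterning ligand, by 2.14. BMP4, the ligand that induces mesoderm, trophoblast-like and amnion-like fates, had 66.7, 58.5, 60.3 and 74.1 normalized counts in controls and 271, 293, 254 and 268 in knockdown. Every knockdown library exceeded every control, an increase of 2.05 ± 0.0966 (SE, adjusted p = 1.52e-24) on the log2 scale. WNT3, WNT3A and WNT8A, WNT ligands of the streak, were not in the table.

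Further lineage genes, listed in the same way, were mixed, while over all genes 32.3% rose and 32.4% fell. In mesoderm 12 of the 24 genes reported were measured, 6 fell and 6 did not pass. SNAI1, a zinc finger repressor of CDH1 in gastrulating mesoderm, changed by -1.13, SP8, a zinc finger factor of limb and neural development, by -1.15, and the muscle and heart factor MEF2C by -1.46. MEF2C was low, at 26.8 ± 7.37 normalized counts in controls and 9.20 ± 2.87 in knockdown (SD, n = 4 each). It had 10 reads in only 2 knockdown libraries, and its change was -1.16 with a pseudocount of 5. In endoderm 6 of 19 were measured, 3 rose and 2 fell, among them the carboxypeptidase M gene CPM, which rose by 1.19. In trophoblast and amnion 10 of 23 were measured, 8 rose and 1 fell, with the matrix gene POSTN up from 22.8 ± 2.11 to 94.8 ± 13.9 counts and the IGF-binding protein gene IGFBP3 by 1.35 in log2 units. With library totals as scaling 5 of these 10 rose and 1 fell. SNAI1, SP8, MEF2C, CPM, POSTN and IGFBP3 had adjusted p-values between 4.06e-18 and 4.69e-06. The lists overlap in function with the 57 genes, and several of their members were known to change in these libraries when they were chosen.

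**Figure D4:**
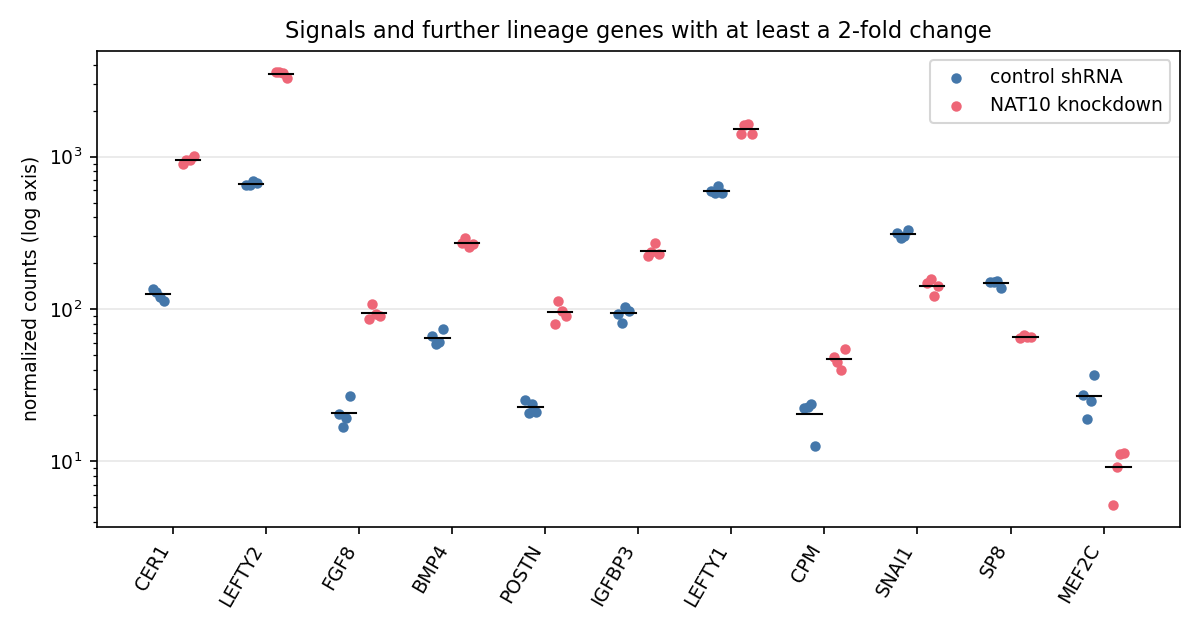
Normalized counts (log axis) in each of 8 libraries of the 11 signal and further lineage genes reported that passed the test with at least a 2-fold change, control shRNA in blue, NAT10 knockdown in red, black line at each group mean (n = 4). The 8 genes from CER1 to CPM are higher in every knockdown library, and SNAI1, SP8 and MEF2C are lower.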

How the data were processed

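The submitters' processing notes list DESeq2 1.26.0, featureCounts 2.0.3, SAMtools 1.12, HISAT2 2.2.1 and fastp 0.21.1, and the hg38 build. Annotation and strand setting: not given in the sources used here. What the authors deposited is a signal, reads per gene divided by a library's size factor, under column names that say read counts: 100% of values in every library were whole multiples of 1 step (within 1e-06 of a read). All genes present reached 10 reads in 4 or more libraries.

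Genes were matched by Ensembl identifier to symbols (17532 of 17546) and to GENCODE release 29 (17225), which gave coordinates on GRCh38 and exon lengths. The main test was limma 3.58.1 in R 4.3.3 (trended, robust) on log2(value + 1) over all genes, group as the only term, Benjamini-Hochberg adjustment at 0.05. It was tested on simulated data. RPKM values, reads per kilobase of exon scaled to library totals, were computed from recovered reads. Values in every library are given for called members with a log2 fold change of at least 0.5 in size and for the highest member of each role group. From the other lists, genes called with a log2 fold change of at least 1 in size are named; 1 gene is not reported here. Members and lists were chosen with earlier results of these data known. Alternatives were other pseudocounts, scalings, a filter, edgeR 4.0.16, DESeq2 1.42.0, limma-voom, a replicate block, a stricter threshold and leaving out each library. Figures used matplotlib 3.10.9.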

Additional observations from a re-analysis of the deposited data

Results flagged for a closer look

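In 3 of 74 groups of 4 libraries, 1 library lay far from the other 3 relative to the group's range, and chance alone does this in about 1 of 20 groups. GATA3 was at 13.5 normalized counts in control library 4, against 4.79 to 4.96 in the other 3 controls, and below every knockdown library. LEFTY2 was at 3278 normalized counts in knockdown library 4, against 3535 to 3577 in the other knockdown libraries. The gene CPM was at 12.5 normalized counts in control library 4, against 22.2 to 23.9 in the other controls. All 3 genes passed the test under every alternative run.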

How the results depend on the processing

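Counts of members called moved by at most 1.5 times under the alternatives run: 8 to 11 rose and 6 to 11 fell, against 10 and 9. With library totals as scaling 8 rose and 11 fell, and the median of all genes moved to -0.11 on the log2 scale, so that calls over all genes became 23.2% higher and 41.9% lower. With a replicate block 10 rose and 9 fell. Equal replicate numbers showed no shared deviation (correlations of -0.133 to -0.0107, against -0.161 to 0.163 for unequal numbers). The samples were treated as unpaired, and these correlations cannot exclude a culture or batch shared by replicate number. Leaving out 1 library gave 10 to 11 higher and 8 to 9 lower. Of 25 members, 18 kept their direction and their side of the threshold in every alternative that tested them. The other 7 were KDR, FOXH1, CXCR4, SOX7, HHEX and FLRT3, whose values stand in the report, and PRDM1, which ranged from -0.18 to 0.13 with 1 library left out and was positive only without knockdown library 4 (adjusted p = 0.566); the cause was not tested. With a pseudocount of 5 the log2 fold changes of MESP2 (-1.50) and APLNR (-1.36) were smaller by more than 1.5 times in fold, with the calls kept. The 11 signal and further lineage genes and NAT10 kept theirs in all. A filter at a mean of 1 CPM left 19 members. At this depth genes under 10 reads in most libraries could not be examined.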
